A study of Mus musculus with 6 samples.

Results

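Bone morphogenetic protein (BMP) and fibroblast growth factor (FGF) signals of the hair cycle were followed through 10 genes: the ligands Bmp2, Bmp4, Bmp6, Fgf5, Fgf7 and Fgf18, the secreted antagonist Sostdc1, the ectodysplasin receptor Edar, and Corin and Vcan, which mark the dermal papilla. The genes were taken by symbol from the array annotation, with every probe set whose only symbol was one of the 10. This gave 21 probe sets out of 45101 on the array, and 10 of the 18193 genes that had a probe set. Skin RNA came from 3 wild-type and 3 knock-in mouse samples, all on a C57BL/6 background, with 1 single-channel Affymetrix array per sample. The knock-in has the genotype code KA in the labels, and the labels name neither the altered gene nor the sex, age or body site of the mice. Nothing says that the samples of a group came from separate animals, so the p-values measure the spread between these arrays, which may be technical.

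The hair follicle cycles through growth (anagen), regression (catagen) and rest (telogen), and BMP and FGF signals help to set the timing of these phases. BMP ligands bind paired type I and type II serine/threonine kinase receptors, which phosphorylate SMAD proteins. In resting skin they hold follicle stem cells quiescent, while in the growing follicle BMP signalling in the hair matrix takes part in differentiation of the shaft. FGF ligands act through tyrosine kinase receptors: Fgf5 ends the growth phase, Fgf18 is made by resting stem cells, and Fgf7 is made by the dermal papilla and fibroblasts and acts on epithelial cells. The dermal papilla is the mesenchymal signalling centre at the base of the follicle.

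Values are MAS5 signals, linear intensities in arbitrary units that the authors scaled to the same trimmed mean on every array. A probe set was tested if its signal lay above its array's median on at least 3 arrays, and the test was limma on log2(signal + 16) with Benjamini-Hochberg adjustment over all 23153 probe sets tested. Differences are knock-in minus wild-type, and the offset of 16 understates them in dim probe sets. Of the probe sets tested, 30.3% passed an adjusted p of 0.05. Counted by the brightest probe set of each gene, 31.2% of 11680 genes passed, 14.9% higher and 16.3% lower in knock-in. Xist had signals of 27.8 to 32.5 in wild-type and 3442 to 4005 in knock-in, and the Y-linked gene Kdm5d 195 to 198 and 4.51 to 7.15. The knock-in arrays thus carried the female and the wild-type arrays the male pattern, and sex and genotype cannot be told apart in any difference given here. The tissue label was checked on keratinocyte genes such as Krt5 and Krt14, and the lowest signal of any of 6 such markers on any array was 1568.

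Among the 10 genes, 5 fell in knock-in skin (Bmp2, Bmp4, Sostdc1, Fgf5 and Corin) and 2 rose (Fgf7 and Vcan). Fgf5 and Corin met the filter through their wild-type arrays, since only 1 knock-in array of each lay above its median. The other 3, Bmp6, Fgf18 and Edar, were too dim for the test. The 7 tested genes had log2 differences from -1.70 (Corin) to 1.32 (Vcan), with a median of -0.96, beside a median of -0.02 over all genes tested. Of the 21 probe sets, 11 were tested and 10 of these passed, 5 lower in 5 genes and 5 higher in only 2, Fgf7 and Vcan. Over the whole array, 30.3% of probe sets and 31.2% of genes tested passed. The signals of the groups did not overlap for 9 of the 10 genes, Edar being the exception, whereas this held for 36.8% of all 18193 genes. In bulk skin, fewer cells of a type and less RNA per cell cannot be told apart.

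**Figure D1:**
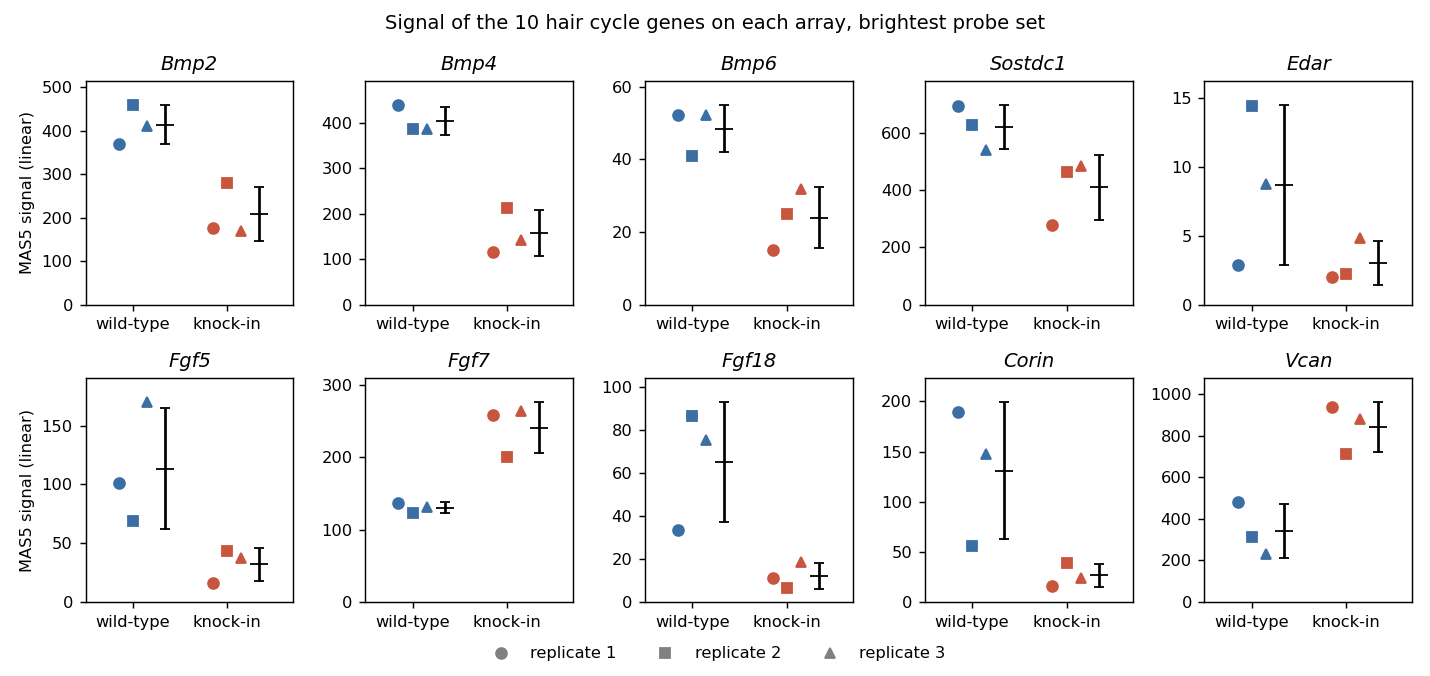
MAS5 signal (linear axis, arbitrary units, starting at 0) of the brightest probe set of each of the 10 genes on the 3 wild-type and 3 knock-in arrays, with the symbol giving the replicate number and the bar the mean ± SD (n = 3). Fgf7 and Vcan are higher on every knock-in array, Edar overlaps between the groups, and the other 7 genes are lower on every knock-in array.

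Promoter sequence was matched by symbol in the RefSeq promoter table (GRCm38.p6) for 8 of the 10 genes, which leaves Bmp2 and Sostdc1. The 250 bases before the annotated start are shown for a pair of genes that fell, Bmp4 and Fgf5, and the pair that rose, so that both directions can be compared. They run 5′ to 3′ on the strand of the gene, and capitals mark GC boxes (GGGCGG on either strand).
Bmp4 (chr14:46390670-46390919, minus strand): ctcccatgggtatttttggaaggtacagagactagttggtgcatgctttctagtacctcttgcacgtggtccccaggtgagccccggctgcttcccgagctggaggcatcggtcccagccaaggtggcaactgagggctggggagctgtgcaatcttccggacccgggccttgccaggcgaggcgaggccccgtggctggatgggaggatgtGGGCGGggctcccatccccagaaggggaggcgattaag
Fgf5 (chr5:98253934-98254183, plus strand): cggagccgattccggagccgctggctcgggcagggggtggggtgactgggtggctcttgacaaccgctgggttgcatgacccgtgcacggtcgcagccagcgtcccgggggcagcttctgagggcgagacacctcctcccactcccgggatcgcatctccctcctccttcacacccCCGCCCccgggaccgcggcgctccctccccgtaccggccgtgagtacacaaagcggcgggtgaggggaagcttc
Vcan (chr13:89742513-89742762, minus strand): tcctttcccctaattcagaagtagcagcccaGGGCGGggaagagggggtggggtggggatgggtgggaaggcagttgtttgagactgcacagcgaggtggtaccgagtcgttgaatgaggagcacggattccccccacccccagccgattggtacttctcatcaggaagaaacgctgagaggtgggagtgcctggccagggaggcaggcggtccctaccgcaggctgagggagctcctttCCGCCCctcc
Fgf7 (chr2:126034408-126034657, plus strand): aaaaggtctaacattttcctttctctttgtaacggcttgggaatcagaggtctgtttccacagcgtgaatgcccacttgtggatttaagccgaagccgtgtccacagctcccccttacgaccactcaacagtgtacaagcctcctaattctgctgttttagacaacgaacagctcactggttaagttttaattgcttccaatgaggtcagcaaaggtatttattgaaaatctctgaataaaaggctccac
A GC box lay 38 bases before the start of Bmp4 and 74 before that of Fgf5, and Vcan had 2, at 219 and 10 bases, counted from the first base of the box. The Fgf7 window held none and had a GC content of 43.6%, against 63.2% for Bmp4, 70.8% for Fgf5, 62.4% for Vcan and a median of 52.4% over all 32851 promoter windows. The window of Corin, which also fell and is not shown, held none either and had a GC content of 51.2%. GC boxes were found in 5 of the 8 windows and in 32.7% of all. The letters CTTTGA, a core recognised by TCF/LEF factors, were found on either strand in the Edar window only among the 8, and in 13.8% of all windows. Neither TATAAA (12.4% of all windows) nor GGCGCC, a motif of BMP-responsive SMADs (9.59%), was present in any of the 8 windows on either strand. No matches of different motifs overlapped in these windows, and a match is only a description of the sequence.

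Of the 3 BMP ligands, Bmp4 and Bmp2 fell in knock-in. Bmp4 (1422912_at), a ligand made in the dermal papilla and hair matrix, had signals of 439.7, 386 and 387 in wild-type replicates 1 to 3 and of 116, 214 and 143 in knock-in. Every knock-in value lay well under the wild-type ones, and knock-in replicate 2 was the highest of its group. Its mean of 404 ± 30.7 in wild-type (SD, n = 3 per group) fell 2.56-fold to 158 ± 50.4 in knock-in, and the log2 difference was -1.31 ± 0.18 (SE, limma, adjusted p = 0.00101). Bmp2 (1423635_at), which in resting skin is also made by the fat layer, had signals of 369, 459 and 411 in wild-type and of 175, 279 and 170.3 in knock-in. The groups did not overlap, and knock-in replicate 2 again stood above the other two. Its group means were 413 ± 44.8 and 208 ± 61.4, and Bmp2 fell with a log2 difference of -0.96 ± 0.18 (adjusted p = 0.00382).

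Bmp6 (1450759_at), a BMP ligand expressed in the quiescent stem cell compartment and in suprabasal epidermis, was dim. It had signals of 52.3, 41.0 and 52.2 in wild-type and of 15.2, 25.1 and 31.8 in knock-in, and lay above the array median on 2 arrays only. The 3 knock-in values were all lower than the 3 wild-type values (two-sided exact permutation p = 0.1, the smallest that 3 against 3 allows). In the fit without the filter on dim probe sets the log2 difference was -0.71 ± 0.20 (limma, adjusted p = 0.0536), which missed the threshold.

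Sostdc1, also called ectodin or Wise, is a secreted protein that binds BMPs and also inhibits Wnt signalling. Its brighter probe set (1449340_at) had signals of 694, 626 and 539.9 in wild-type and of 278, 465 and 485 in knock-in. The groups did not overlap, but knock-in replicates 2 and 3 came near wild-type replicate 3. Group means were 619.9 ± 77.3 and 409 ± 114, and the gene fell with a log2 difference of -0.61 ± 0.20 (limma, adjusted p = 0.0410). The second probe set (1460250_at) had signals from 253 to 343 in wild-type and from 126 to 247 in knock-in, and with a like difference of -0.61 ± 0.21 it missed the threshold (adjusted p = 0.0578). The call for Sostdc1 was the least stable of the 7. It was lost without wild-type replicate 1 (adjusted p = 0.106), 2 (0.0868) or 3 (0.0631), without knock-in replicate 1 (log2 difference -0.37, adjusted p = 0.0796), after median centring (-0.48, adjusted p = 0.114) and with the replicate number as a block (adjusted p = 0.0783), in a range from 0.0334 to 0.114 over 17 alternatives.

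Edar, the receptor of ectodysplasin A1 and a regulator of hair placode formation, was close to the floor of the array. Its brighter probe set (1419724_at) had signals of 2.86, 14.5 and 8.80 in wild-type and of 2.01, 2.22 and 4.86 in knock-in. Neither of its probe sets reached the median of any array, the groups overlapped, and the second (1447498_at) stayed between 0.125 and 1.44. No difference in Edar was detectable at this signal (limma without the filter, log2 difference -0.35 ± 0.18, adjusted p = 0.255).

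The FGF ligands went in both directions. Fgf5, whose loss gives mice with abnormally long hair, had signals of 101, 68.7 and 170.0 in wild-type and of 16.3, 43.0 and 37.1 in knock-in (1438883_at). Wild-type values were spread widely, from 68.7 to 170.0, and still lay above every knock-in value. Its mean of 113 ± 51.7 fell 3.53-fold to 32.1 ± 14.0, with a log2 difference of -1.40 ± 0.31 (limma, adjusted p = 0.00856), or -0.85 with an offset of 64. Knock-in replicates 1 and 3 lay below every array's median, so the fold rests on dim signals and its size is uncertain. This probe set passed the filter on 4 arrays, the 3 wild-type ones and 1 knock-in array, so its wild-type signals alone carried it into the test. In the fit without the filter its log2 difference was the same (limma, adjusted p = 0.0236). A second Fgf5 probe set (1426186_a_at) was too dim for the test, with signals of 50.9, 39.8 and 57.1 in wild-type and of 29.0, 28.4 and 28.4 in knock-in. Its groups did not overlap either, and no fold is given, since all 3 knock-in signals lay below every array's median.

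Fgf18 (1449545_at), a ligand of resting follicle stem cells, had signals of 33.7, 86.6 and 75.4 in wild-type and of 11.2, 6.59 and 18.4 in knock-in. Wild-type replicate 1 was the lowest of its group, and the groups did not overlap. The gene lay above the array median on 2 arrays only and was not tested. Without the filter its log2 difference was -1.49 ± 0.30 (limma, adjusted p = 0.0131), where 17.5% of all genes passed. The means were 65.2 ± 27.9 and 12.1 ± 5.95 (two-sided exact permutation p = 0.1), and no fold is given, since all 3 knock-in signals lay below every array's median.

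Fgf7, also called keratinocyte growth factor, was the FGF ligand that rose. Its brighter probe set (1438405_at) had signals of 137, 122 and 132 in wild-type and of 259, 201 and 264 in knock-in. The wild-type arrays lay close together, and the lowest knock-in value, in replicate 2, stood clearly above them. Its mean of 130.4 ± 7.59 rose 1.85-fold to 241 ± 35.1, with a log2 difference of 0.80 ± 0.13 (limma, adjusted p = 0.00199). The second probe set (1422243_at) had signals of 101, 129 and 75.8 in wild-type and of 222, 202 and 226 in knock-in. It gave 1.00 ± 0.17 (adjusted p = 0.00221), so both probe sets of Fgf7 passed in the same direction.

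The dermal papilla genes Corin and Vcan moved in opposite directions. Corin (1419017_at), a transmembrane serine protease of the dermal papilla, had signals of 189.8, 56.1 and 147 in wild-type and of 16.1, 39.2 and 24.3 in knock-in. Wild-type replicate 2 was low, not far above knock-in replicate 2, but the groups did not overlap. Its mean of 131 ± 68.3 fell 4.94-fold to 26.5 ± 11.7, with a log2 difference of -1.70 ± 0.36 (limma, adjusted p = 0.00737), or -1.05 with an offset of 64. Knock-in replicates 1 and 3 lay below every array's median, so the fold rests on dim signals and its size is uncertain. Corin passed the filter on 4 arrays, again the 3 wild-type ones and 1 knock-in array, so its wild-type signals alone carried it into the test. In the fit without the filter its log2 difference was the same (limma, adjusted p = 0.0208).

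Vcan encodes versican, a large chondroitin sulfate proteoglycan of the dermal papilla matrix that dermal fibroblasts also make. The brightest of its 8 probe sets (1427256_at) had signals of 481, 313 and 229 in wild-type and of 939, 709.8 and 878 in knock-in. The lowest knock-in value, in replicate 2, lay above the highest wild-type value. Its mean of 341 ± 128 rose 2.47-fold to 842 ± 119, with a log2 difference of 1.32 ± 0.23 (limma, adjusted p = 0.00270). The probe set 1421694_a_at rose from 179.8 ± 60.6 to 583 ± 109 (1.64 ± 0.21, adjusted p = 0.000691), and 1427257_at from 58.7 ± 19.4 to 185 ± 46.9 (1.44 ± 0.22, adjusted p = 0.00147). In all 3 of these probe sets wild-type replicate 1 was the highest wild-type array and knock-in replicate 1 the highest knock-in array. The other 5 Vcan probe sets lay between 0.335 and 16.2 on all arrays, below every array's median, and give no level to compare.

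Knock-in replicate 2 was the knock-in array nearest to the wild-type mean in 6 of the 7 tested genes, whichever way they moved. Sostdc1, with replicate 3 nearest, was the exception. The same array was nearest for 51.2% of all 3646 genes past the threshold, against 25.3% for replicate 1 and 23.5% for replicate 3. Without knock-in replicate 2 the log2 differences of Bmp2 and Bmp4 were -1.18 and -1.53, and those of Fgf7 and Vcan 0.92 and 1.43. Calls for Bmp2, Bmp4, Fgf7 and Vcan held under all 17 alternatives, and those for Fgf5 and Corin under the 16 in which they were tested, since a filter requiring all 6 arrays removes both.

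**Figure D2:**
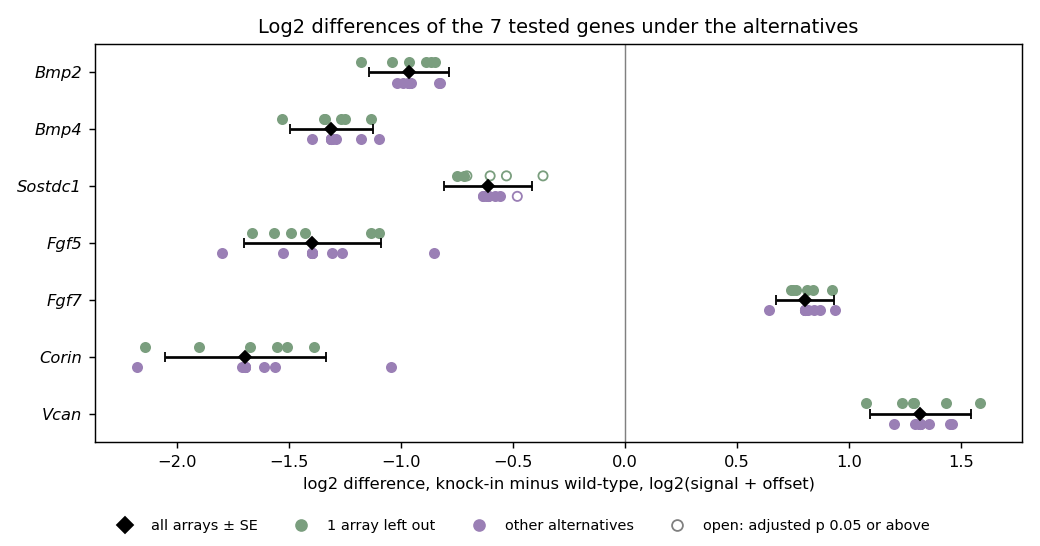
Log2 difference (knock-in minus wild-type) of the 7 tested genes, with the value over all arrays ± SE (diamonds), the values with 1 array left out (green) and those under the other alternatives (purple). Open circles, all in Sostdc1, have an adjusted p of 0.05 or above, and no gene changes sign.

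The rest of the BMP pathway was read from a list of 34 other genes, of which 32 had a probe set and 27 were tested. Of these, 16 fell, 0 rose and 11 did not pass (limma), beside 16.3% of all tested genes lower and 14.9% higher. At an unadjusted p under 0.05, 17 of the list were lower and 2 higher, and its median log2 difference was -0.46. Across roles, 3 of 3 tested ligands, 4 of 5 receptors, 4 of 10 inhibitors and 5 of 6 targets fell, while 0 of 3 SMAD transducers passed. Bmp8a, 1 of the 3 ligands, was tested through its wild-type signals alone. It is included in the 16 and in the 3, but its call carries no weight. Chrd, 1 of the 2 higher at an unadjusted p, was tested through its knock-in signals alone. Id4, an inhibitor of basic helix-loop-helix factors and a BMP target, fell from 1374 ± 164 to 493 ± 55.9 (-1.45 ± 0.12, adjusted p = 6.26e-05). The homeobox genes Msx2 and Msx1, BMP targets of the hair matrix, fell from 659.7 ± 165 and 162 ± 44.2 to 235 ± 59.0 and 66.8 ± 6.41 (-1.43 ± 0.21 and -1.08 ± 0.18). Bambi, a decoy receptor that BMP signalling itself induces, fell from 865 ± 255 to 272 ± 70.2 (-1.60 ± 0.23). The ligand Gdf10 fell by 1.28 on the log2 scale. The count of 16 was 7 without wild-type replicate 3, 8 without knock-in replicate 1, 9 without knock-in replicate 3 and 10 without wild-type replicate 2, and with the replicate number as a block 10. After median centring, which raises all differences by 0.13, 7 fell and 2 rose.

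The FGF list held 25 other genes, with 24 on the array and 16 tested. In it 6 fell, 0 rose and 10 did not pass (limma, with 8 lower and 0 higher at an unadjusted p under 0.05). Of all tested genes, 16.3% were lower and 14.9% higher, and the median log2 difference of the list was -0.26. The called share of the list was near the 31.2% of all tested genes, and the count by itself is no result about the list. The receptor Fgfr2, which binds Fgf7 in epithelial cells, fell from 463 ± 16.3 to 319.5 ± 12.2 (-0.51 ± 0.09, adjusted p = 0.00349). Fgfr3 had a difference of -0.47 ± 0.11 (adjusted p = 0.0132, in a range from 0.00720 to 0.0763 over 17 alternatives). The ligand Fgf22 fell from 175 ± 45.3 to 83.3 ± 11.3 (-0.92 ± 0.18) and the transcription factor Etv5, induced by FGF signalling, from 217 ± 23.7 to 141 ± 20.4 (-0.58 ± 0.13). The exchange factor Sos1 (-0.33) and the feedback inhibitor Spred2 (-0.32) passed narrowly, with adjusted p of 0.0368 and 0.0457, and lost their calls under 8 and 9 of 17 alternatives. The list counted 3 without wild-type replicate 3, without knock-in replicate 1 or with the replicate number as a block, and 3 lower and 2 higher after median centring.

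Of 11 other genes of the ectodysplasin pathway, 7 were tested and 2 fell, 0 rose and 5 did not pass (limma, with 2 lower and 2 higher at an unadjusted p under 0.05). That share is near the 31.2% called among all tested genes and is no result about the list. Shh, the hedgehog ligand of the hair matrix, fell from signals of 336, 141 and 203 to 55.4, 67.4 and 65.5 (-1.55 ± 0.25, adjusted p = 0.00204). Edaradd, the adaptor that couples Edar to TRAF6, fell from 176 ± 12.3 to 95.4 ± 15.3 (-0.79 ± 0.14, adjusted p = 0.00269). Ikbkg and Traf6, shared with NF-kB signalling, had differences of 0.29 and 0.32 (adjusted p = 0.0753 and 0.0953), and both passed as higher after median centring (0.0304 and 0.0395). Tab2 and Eda2r had differences of -0.12 and -0.21 that did not pass and changed sign, Tab2 to 0.01 after median centring and Eda2r to 0.02 without knock-in replicate 2.

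Among 17 other genes known from the dermal papilla, 13 were tested, and 3 rose, 5 fell and 5 did not pass (limma). Their median log2 difference was 0.03, and of all tested genes 14.9% were higher and 16.3% lower. Of the 3 that rose, Prom1 was tested through its knock-in signals alone, and its call carries no weight. Like Corin and Vcan, the other called genes of the list went both ways. Lef1, a Wnt effector of papilla and matrix, fell from 218 ± 22.1 to 76.6 ± 27.2 (-1.37 ± 0.21, adjusted p = 0.00138). The secreted Wnt inhibitor Wif1 fell from 238 ± 61.1 to 104 ± 40.6 (-1.11 ± 0.24), the transcriptional repressor Prdm1 by 0.73 and the zinc finger factor Trps1 by 0.65 on the log2 scale. Sox18, a transcription factor of both papilla and endothelium, rose from 85.9 ± 12.4 to 303 ± 4.05 (1.65 ± 0.12, adjusted p = 3.46e-05). The retinoic acid binding protein Crabp1 rose from 173 ± 51.7 to 406 ± 97.5 (1.18 ± 0.23). Leaving out probe sets that may read several transcripts, of 1 gene or of more, 1 gene of this list rose. The probe sets of Crabp1 and Prom1 were among those left out.

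**Figure D3:**
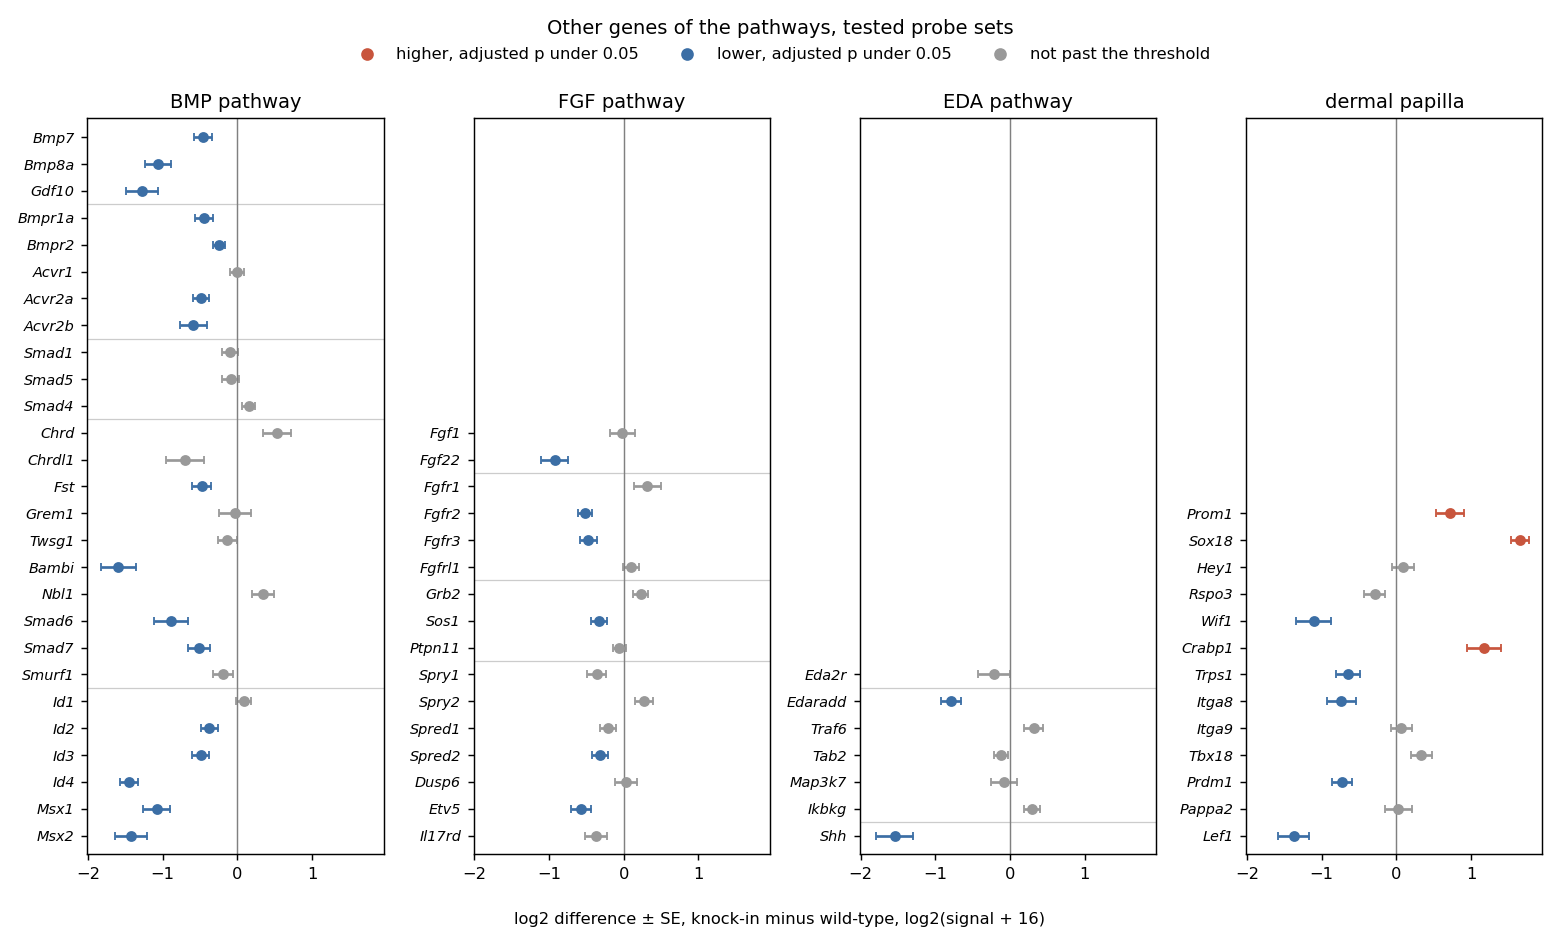
Log2 difference ± SE (knock-in minus wild-type) of the tested genes in the BMP (27), FGF (16), ectodysplasin (7) and dermal papilla (13) lists, with lines between ligands, receptors, transducers, inhibitors and targets, red for higher and blue for lower at an adjusted p under 0.05. In the first 3 lists all coloured points lie below 0, and in the papilla list 3 lie above and 5 below.

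Markers of other cell types moved with these differences, and their part in them was not tested. Of all tested genes, 14.9% passed as higher and 16.3% as lower, beside the counts that follow. All 9 measured markers of hair matrix and inner root sheath fell, and their summed signal lay between 37855 and 45832 in wild-type and between 14876 and 24091 in knock-in, where replicate 2 was highest. Of 6 stem cell and bulge markers, 4 fell, with sums of 6656 to 9332 and 3697 to 4380. All 6 melanocyte markers fell as well, with sums of 2467 to 4925 and 1109 to 1787. Dermal fibroblast markers overlapped between the groups (34890 to 44899 and 36762 to 42032), with 1 of 6 higher, 1 lower and 4 not past the threshold. Keratinocyte markers overlapped too, with 2 of 6 higher, as did adipocyte markers, with 1 of 4 higher. The called shares of these 3 lists were near the 31.2% of all tested genes and are no result about the cells. Neutrophil markers had sums of 533 to 761 in wild-type and 14405 to 18549 in knock-in. Most of the knock-in sum came from S100a8 and S100a9, with knock-in means of 9374 and 6055. All 5 neutrophil markers were higher, but 3 (Cxcr2, Mmp8 and Csf3r) were tested through their knock-in signals alone. Endothelial markers were higher in 5 of 6, 1 of them (Tie1) tested in the same way, with sums of 390.4 to 591 and 1204 to 1462. Macrophage markers were higher in 3 of 6 and sebaceous markers in 1 of 5 with 3 lower. Muscle markers were lower in 4 of 6, with sums of 31692 to 49413 in wild-type and 17853 to 29262 in knock-in. No marker was listed at 0, the lowest being at 1.72 in the neutrophil list.

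**Figure D4:**
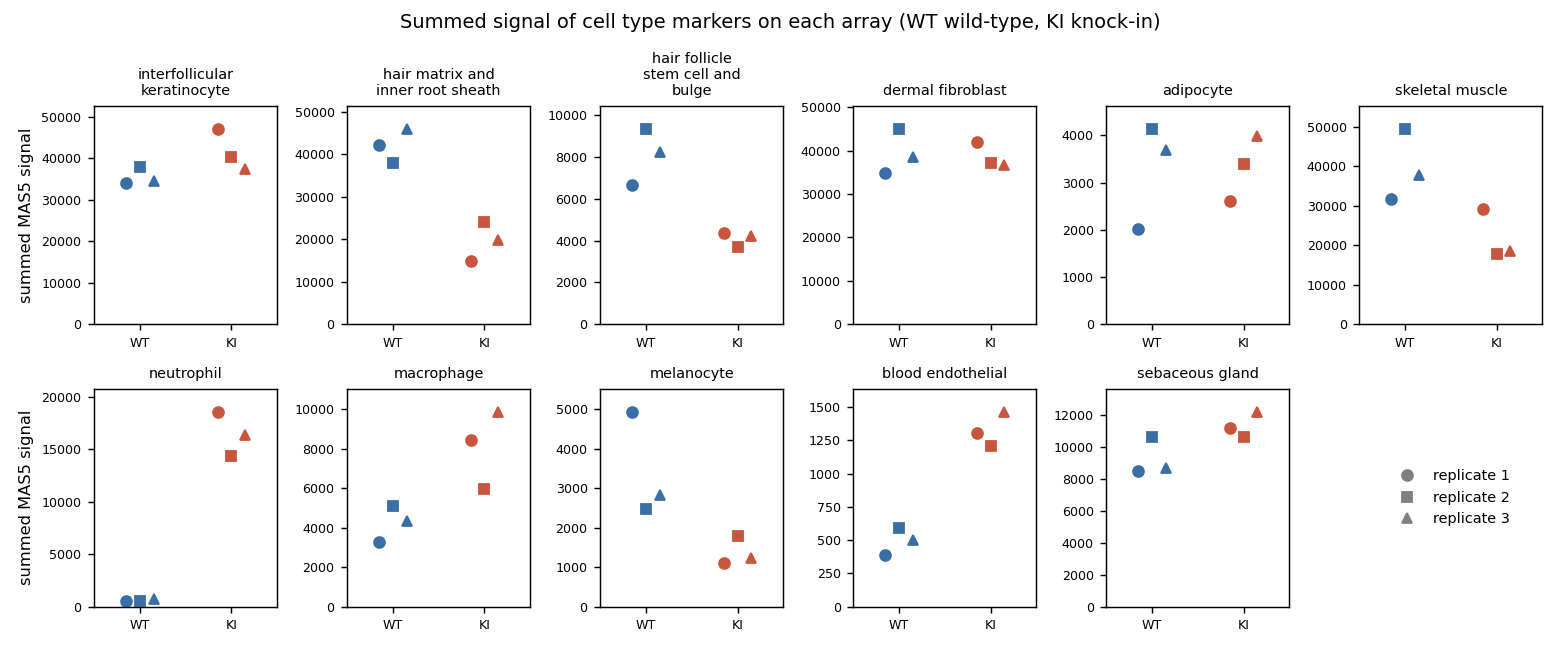
Summed MAS5 signal (linear axis from 0) of the markers of each cell type on the 3 wild-type (WT) and 3 knock-in (KI) arrays, with the symbol giving the replicate number. Hair matrix, stem cell, melanocyte and muscle sums are lower on every knock-in array, and neutrophil, macrophage and endothelial sums are higher. Fibroblast, keratinocyte, adipocyte and sebaceous sums overlap.

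For the 3 genes with the smallest adjusted p, the 2 genes with the most similar profile were looked up among 11673 other tested genes by Pearson's r of the log2 values over the 6 arrays. The difference between the groups adds to every such r, which is given as a description. Zranb2 (r = 0.9995) and Mettl26 (0.998) were nearest to Bmp4, with smaller log2 differences of -0.41 and -0.30. Mettl26 did not pass (limma, adjusted p = 0.0722), and Zranb2 (adjusted p = 0.0125) kept its call under 15 of 17 alternatives. Pdpn, which encodes podoplanin, and Icam2, an adhesion molecule of endothelium and leukocytes, were nearest to Fgf7 (0.999 and 0.997), with differences of 1.45 and 1.01. Icam2 was tested through its knock-in signals alone, so its difference is partly fixed by the filter. Mrps7 and Dpagt1 were nearest to Vcan (0.998 and 0.996), with differences of 0.37 and 0.38, and each kept its call under 11 of 16 alternatives.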

How the data were processed

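The 6 arrays gave 1 deposited table of MAS5 signal intensity, linear and scaled per array by the authors, per the submitters' processing notes; the MAS5 version is not given in the sources used here. The 2% trimmed mean was 150 on every array, and no further normalization was applied. After leaving out 64 control probe sets, 34945 probe sets had 1 gene symbol, 932 several and 9160 none; the last 2 kinds named no gene. For probe sets above their array's median on at least 3 arrays, the log2 of the deposited signal plus 16 was fitted by limma 3.58.1 (R 4.3.3; lmFit, trended eBayes, two-sided, Benjamini-Hochberg, threshold 0.05). The probe set with the highest mean stood for a gene. The procedure was tested on simulated data. The number of arrays limits the precision (median SE of a log2 difference 0.13). Named were all probe sets of the 10 genes and up to 6 genes with the smallest p per list. For 3 members the 2 most similar genes were also named. Single genes named beside these check the tissue or the sex pattern, mark tests carried by 1 group, or dominate a marker sum. The members and lists were chosen with earlier results of these data known. The 17 alternatives varied offset (1, 64), filter, normalization, probe set rule, variance prior, array weights and replicate block, and left out each array.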

Additional observations from a re-analysis of the deposited data

How the results depend on the processing

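The numbers in the sample titles did not pair the arrays: deviations of same-numbered arrays correlated at -0.24, -0.34 and -0.05, and not every sample correlated best with its own number. With the number as a replicate block, 4888 probe sets passed in place of 7010, and among the 10 genes only Sostdc1 (-0.61, adjusted p = 0.0783) lost its call. The BMP list then counted 10 and the FGF list 3. Sostdc1 also lost it with no filter (-0.61, adjusted p = 0.0796), no variance trend (-0.61, 0.0574) and median centring (-0.48, 0.114), and ranged from -0.75 to -0.37 with 1 array left out. Of the 10 genes, 5 to 7 passed under every alternative run, all in their original direction. Median centring gave 4423 probe sets higher and 2501 lower, against 2999 and 4011, and counts of 9 for BMP and 4 for ectodysplasin genes; it turned the log2 difference of Tab2 to 0.011. With 1 probe set per gene, which tests fewer features, 3637 passed. Without probe sets that may read several transcripts the papilla list counted 5. With 1 array left out, all calls ranged from 4134 (wild-type replicate 3) to 6225, BMP calls from 7 to 12, FGF calls from 3 to 6, and the log2 difference of Eda2r from -0.34 to 0.019. The cause of these changes was not tested. Dim signals limit Bmp6, Fgf18 and Edar, which only the fit without the filter tests, and there the called genes numbered 7, with Fgf18 in and Sostdc1 out.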
